A study of Ictidomys tridecemlineatus with 31 samples.

Results

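Messenger RNA of 8 genes with a part in sodium and bicarbonate recovery in the proximal tubule of the kidney was followed. The animals were 13-lined ground squirrels (Ictidomys tridecemlineatus), hibernating rodents, in 6 states of their year. The genes were taken by name: Slc9a3, Slc9a3r1, Slc4a4, Ca2, Ca4, Ca12, Atp1b1 and Fxyd2. Each of the 8 had 1 row in the table of 12863 genes, and none was missing. They were chosen by function, with earlier results of these data known.

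Proximal tubule cells recover most of the filtered bicarbonate and much of the sodium. The exchanger NHE3 (Slc9a3) in the apical membrane takes up sodium and secretes protons, which turn filtered bicarbonate into carbon dioxide and water with the help of the membrane carbonic anhydrase Ca4 on the lumen side. Inside the cell the soluble Ca2 makes bicarbonate again, and the cotransporter NBCe1 (Slc4a4) carries it with sodium across the basolateral membrane, where the membrane carbonic anhydrases Ca4 and Ca12 face the interstitium. The sodium pump, of which Atp1b1 is the beta subunit and Fxyd2 a small regulator, keeps sodium in the cell low, and the scaffold NHERF1 (Slc9a3r1) holds NHE3 and other transporters in place below the brush border. Loss of Slc4a4 or of Ca2 causes renal tubular acidosis in people. Several of the 8 are also used outside the proximal tubule. Among them are the pump subunits, in further segments of the nephron, and Ca2, in intercalated cells of the collecting duct.

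Messenger RNA was measured in a piece of kidney from each of 31 wild-type captive squirrels carrying implanted temperature devices, of both sexes. Summer active (SA) animals were warm and feeding, and spring dark (SpD) animals were warm after hibernation but still housed in the cold and dark. Hibernating animals were sampled during interbout arousal, when they are briefly warm (IBA), at entrance into torpor (Ent), early in arousal while still cold (EAr) and later in arousal while rewarming (LAr). SA and SpD are called the active season here and the other 4 states the hibernation season. IBA, Ent and SpD held 3 animals each from experiment 1 and 2 each from experiment 2, which used different library kits, and SA, EAr and LAr came from experiment 2 alone.

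Values are log2 levels normalized by the authors, with the difference between the experiments already removed. Their counts are not part of the table and the depth is unknown, so all errors below are spreads between animals. Levels are not corrected for gene length, and they are compared between states and not between genes. In a bulk sample fewer cells of a type and less RNA per cell cannot be told apart. The main fit left out K113 (LAr) and K137 (SA), as the study did for its tests of expression, and had 29 animals (SA 4, the other states 5 each). Every comparison was repeated with all 31 animals and with 28 (also without K130, SpD).

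K113 and K137 stood apart in the 8 genes, and K130 in some of them. In K113 all 8 genes lay below every other LAr animal, where 37.2% of all genes did, with the widest gaps to the mean of the other 5 animals for Slc9a3 (-1.31 on the log2 scale), Slc4a4 (-1.15) and Ca12 (-0.91). In K137 all 8 lay below every other SA animal, where 29.5% of all genes did, and Slc4a4 differed most (-1.62). In K130, 3 of the 8 lay outside the other SpD animals. Its Slc4a4 (12.67, against a mean of 14.29 in the other 4 SpD animals) and Slc9a3r1 lay below the other SpD animals, where 28.4% of all genes did. Its Atp1b1 (16.80, against 16.18 to 16.24) lay above them, where 32.7% of all genes did, and its other 5 genes lay among them. In the same 3 animals the mean level of 10 proximal tubule markers was lower than in the rest of their state (differences of -1.0 in K113, -1.13 in K137 and -1.64 in K130). That of the inner medulla markers, of which 2 were in the table, was higher (by 3.86, 3.22 and 2.44). So was that of the 3 principal cell markers (by 0.93, 1.07 and 0.70). The part of these marker levels in the values of the 3 animals was not tested.

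**Figure D1:**
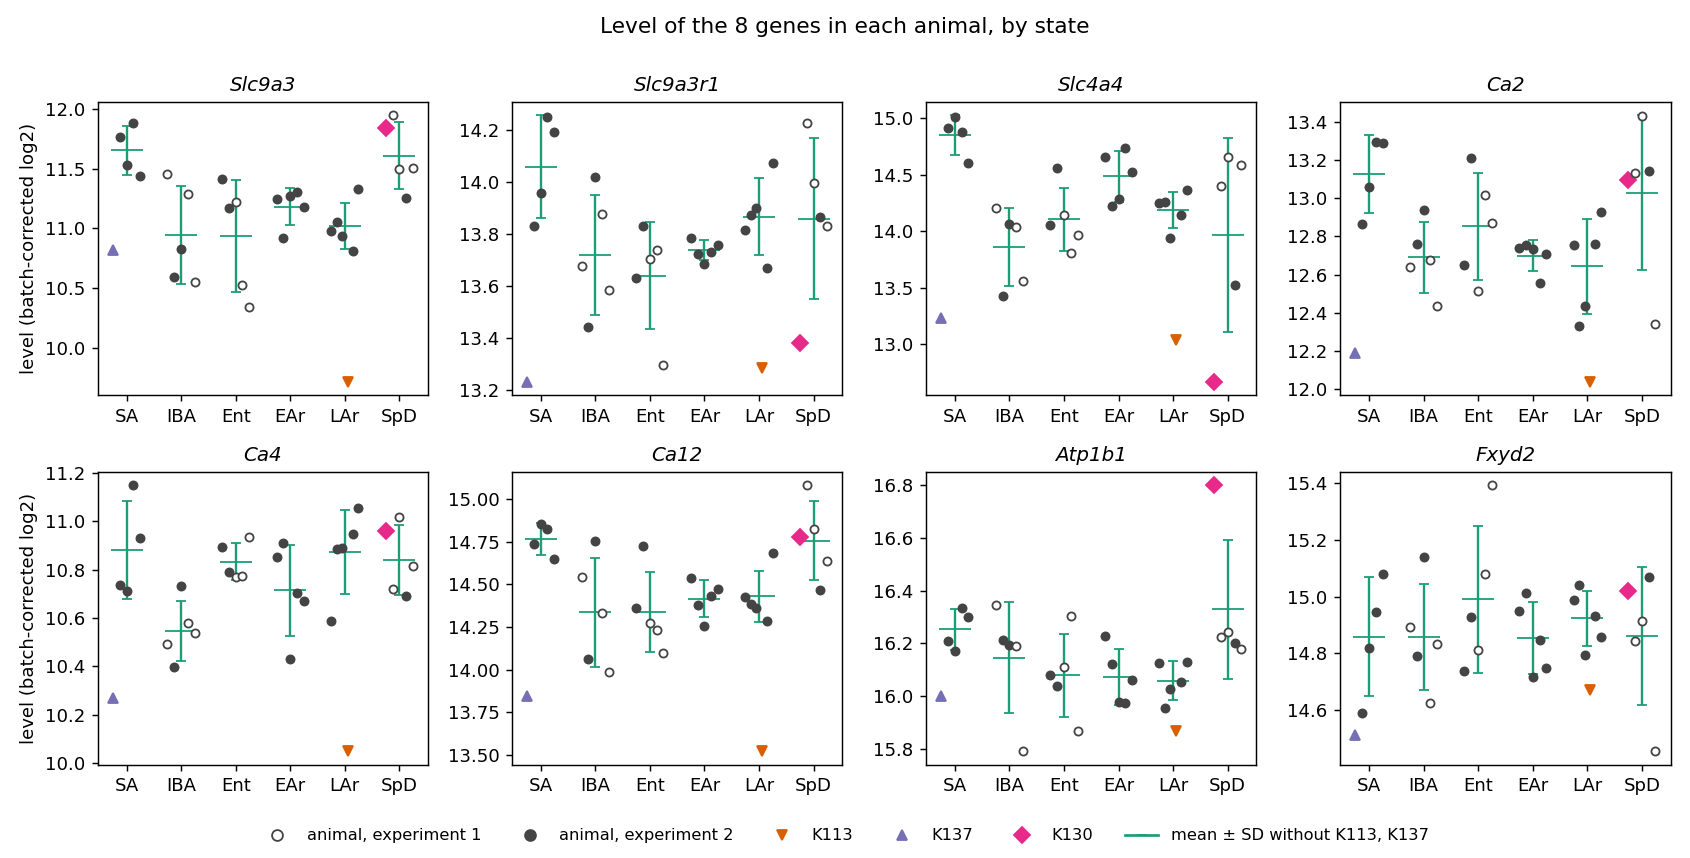
Level of each of the 8 genes (vertical axes, batch-corrected log2, a separate scale for each gene) in every animal of the 6 states (horizontal axes). Open circles are animals of experiment 1, filled ones of experiment 2, and green marks give the mean ± SD of each state without K113 and K137. The means of Slc9a3, Ca2, Ca12 and Atp1b1 were higher in SA and SpD than in the 4 hibernation states, with overlap between animals. Slc4a4 was highest in SA, and K113 and K137 lay at the bottom of their states for all 8 genes.

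Across the 6 states none of the 8 genes passed the study's threshold of q under 0.001 (limma F test with Benjamini-Hochberg adjustment over all genes), which 9.34% of all genes did. Under a looser threshold of 0.05, 4 passed (Slc9a3 with q = 0.00671, Slc4a4 with q = 0.0117, Ca12 with q = 0.0224 and Ca2 with q = 0.0416), where 46.1% of all genes passed. The share of the 8 was near that of all genes. Ca4 (q = 0.0548), Slc9a3r1 (0.118), Atp1b1 (0.150) and Fxyd2 (0.832) did not pass. At an unadjusted p under 0.05 there were 5 of the 8 and 56.0% of all genes. With all 31 animals 1 of the 8 had q under 0.05 (Slc9a3, q = 0.0454), against 32.8% of all genes. With 28 there were 4, against 42.2%, with Slc9a3r1 (q = 0.0448) in and Ca2 (q = 0.0673) out.

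Slc9a3, the apical sodium and proton exchanger, stood higher in the active states than in hibernation. The 4 SA animals had levels of 11.44, 11.53, 11.77 and 11.88, and the 5 SpD animals 11.25, 11.50, 11.51, 11.84 and 11.95. In IBA the levels were 10.55, 10.59, 10.83, 11.29 and 11.45, and in Ent 10.34, 10.53, 11.17, 11.22 and 11.41. In EAr they were 10.92, 11.18, 11.24, 11.27 and 11.30, and in LAr 10.81, 10.94, 10.98, 11.06 and 11.33. SA lay wholly above EAr, LAr and Ent and overlapped IBA by a narrow margin, since the lowest SA animal (11.44) was just under the highest IBA animal (11.45). Of all genes 26.4% did not overlap between SA and EAr, 29.2% between SA and LAr and 14.1% between SA and Ent. K137 of SA (10.82), left out here, lay below EAr and within the ranges of LAr and Ent. In the order of state means (SA 11.65, SpD 11.61, EAr 11.18, LAr 11.02, IBA 10.94, Ent 10.93) the step from SpD to EAr (0.43) was the only step between neighbours that exceeded the larger SD of the pair.

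In the hibernation season Slc9a3 fell by 0.61 on the log2 scale against the active season (SE 0.12, 95% interval -0.85 to -0.37, q = 0.000365, limma), a 1.53-fold lower level. It was the only one of the 8 past q of 0.001 in that comparison, where 9.73% of all genes passed and 5.29% passed with a lower level, so that 1 of 8 is near the share of all genes. The call was narrow. With all 31 animals the difference was -0.59 and q was 0.00553, with 28 animals it was -0.60 and q was 0.000824. Leaving out K138, K139 or K140 (SA) or K3 (SpD) put q at 0.00119, 0.00105, 0.00131 and 0.00106, with differences of -0.61, -0.62, -0.59 and -0.55. The pairs of states gave the same direction with less certainty: Slc9a3 was lower in IBA than in SA by 0.66 (SE 0.22, q = 0.0307), and higher in SpD than in IBA by 0.67 (SE 0.18, q = 0.0200). With 31 animals these had q of 0.25 and 0.107. Both active states are shared with the seasonal comparison. The 2 active states themselves differed by -0.01 (SA minus SpD, 95% interval -0.45 to 0.44).

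Slc9a3r1, the scaffold NHERF1, ran from 13.83 to 14.25 in SA and from 13.30 to 13.83 in Ent. SA lay just above Ent (lowest SA animal 13.8303, highest Ent animal 13.8295) and above EAr (highest 13.79). Of all genes 14.1% did not overlap between SA and Ent and 26.4% between SA and EAr. K137 of SA (13.23), left out here, lay below Ent and EAr. The other 4 states lay within the limits of SA and Ent, with SpD widest (13.38 to 14.23, the lowest being K130). Its level in the hibernation season was lower by 0.22 (SE 0.08, q = 0.0452). Without K130 the difference was -0.28 (q = 0.00646), and with all 31 animals it was -0.16 (q = 0.262). No step between neighbouring state means of Slc9a3r1 exceeded the spread between animals.

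Slc4a4, the basolateral sodium bicarbonate cotransporter, had the widest range of state means of the 8 (0.99 between SA and IBA). The SA animals had levels of 14.60, 14.87, 14.91 and 15.01, and the IBA animals 13.42, 13.56, 14.04, 14.07 and 14.21. In Ent the levels were 13.81, 13.97, 14.05, 14.14 and 14.56, in EAr 14.22, 14.29, 14.53, 14.65 and 14.74, and in LAr 13.94, 14.14, 14.25, 14.26 and 14.36. In SpD they were 12.67 (K130), 13.52, 14.40, 14.59 and 14.65, a spread (SD 0.86) more than that of any other state. All SA animals lay above all IBA animals. Slc4a4 was the only one of the 8 whose SA and IBA animals did not overlap, which held for 18.8% of all genes.

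With sex and experiment in the fit, Slc4a4 was lower in IBA than in SA by 1.26 (SE 0.28, 95% interval -1.84 to -0.67, q = 0.00303), a 2.39-fold lower level. In 28 animals it was lower by 1.07 (q = 0.00119), and in 31, with K137 back in SA, by 0.93 (q = 0.0981). It missed q of 0.001, as did the other 7 genes in this comparison, where 3.15% of all genes passed. At 0.05 Slc4a4, Slc9a3 and Ca4 (lower in IBA by 0.33, q = 0.0443) were called, 3 of the 8 and all lower in IBA, against 12.5% of all genes called with a lower level. With 31 animals none of the 3 was under 0.05. At an unadjusted p under 0.05 there were 5 of the 8 and 36.3% of all genes. Leaving out K167, an Ent animal, moved Slc4a4 to q = 0.000587 (-1.39) through the shared fit.

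Slc4a4 was also higher in SA than in SpD (by 1.15, SE 0.28, q = 0.0154), and this value rested on K130. In 28 animals it was 0.65 and q was 0.148, and in 31 it was 0.82 and q was 0.224. No gene of the 8 passed 0.001 between SA and SpD, where 0.0544% of all genes did. At 0.05 Slc4a4 alone passed, where 5.47% of all genes did with a higher level in SA. Over the seasons Slc4a4 was lower in hibernation by 0.25 (SE 0.15, q = 0.22) in 29 animals, and by 0.41 without K130 (q = 0.0111). With experiment 2 alone, where K130 is 1 of 2 SpD animals, the sign turned (0.21, q = 0.246). In experiment 2 without K130 the sign did not turn.

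The seasonal comparison also gave low values for the carbonic anhydrases that did not reach 0.001. Ca12, the membrane enzyme with its active site outside the cell, ran from 14.65 to 14.86 in SA and from 14.47 to 15.08 in SpD, and from 13.99 to 14.75 in IBA, which held both the lowest and the highest hibernation value of the 29 animals. It was lower in the hibernation season by 0.38 (SE 0.09, q = 0.00145). Leaving out K1 or K171 (IBA), K167 (Ent) or K84 (SpD) moved q to 0.000981, 0.000478, 0.000503 and 0.000549, and all 31 animals gave -0.33 and q = 0.0409. Ca12 was higher in SpD than in IBA by 0.42 (SE 0.13, q = 0.0414), with q of 0.0520 in 28 animals and 0.195 in 31. The step from SpD to LAr (0.33) was the only step in its order of states past the spread between animals.

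Ca2, the soluble enzyme, ran from 12.87 to 13.30 in SA. In EAr all 5 animals lay between 12.56 and 12.75, below each SA animal, where 26.4% of all genes did not overlap between the 2 states. K137 of SA (12.19), left out here, lay below EAr. In SpD 4 animals lay between 13.09 and 13.43 with K9 at 12.34. Its level was lower in the hibernation season by 0.36 (SE 0.10, q = 0.00669). Without K9 the difference was -0.44 and q was 0.000468. With 31 animals it was -0.28 and q was 0.0733.

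Ca4, the membrane-anchored enzyme of the lumen, had its lowest state mean in IBA, as Slc4a4 and Ca12 did. No step between neighbouring state means of Ca4 exceeded the spread between animals. The IBA animals had levels of 10.40, 10.49, 10.54, 10.58 and 10.73, and the Ent animals 10.77, 10.78, 10.79, 10.89 and 10.93. The 2 states did not overlap, and Ca4 was the only one of the 8 of which that was so, where 7.74% of all genes did not overlap. In the fit Ca4 was higher in Ent than in IBA by 0.29 (SE 0.10, q = 0.0594), higher in SpD than in IBA by 0.29 (q = 0.0562), and lower in IBA than in LAr by 0.32 (SE 0.11, q = 0.0477). With all 31 animals, K113 among LAr, the last difference was -0.19 and q was 0.504. Over the seasons its difference was -0.12 (SE 0.06, q = 0.151).

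Atp1b1 and Fxyd2, the subunits of the sodium pump, had narrower ranges of state means than the other 6 genes. Atp1b1, the beta subunit that carries the pump to the membrane, had levels of 16.17, 16.21, 16.30 and 16.33 in SA and of 16.18, 16.20, 16.22, 16.24 and 16.80 in SpD, the last being K130. In LAr it ran from 15.96 to 16.13, below each animal of both active states. K137 of SA (16.00), left out here, lay within that range. Of all genes 29.2% did not overlap between LAr and SA, in either direction, and 12% between LAr and SpD. In IBA it ran from 15.79 (K7) to 16.35, the widest spread after that of SpD with K130. It was lower in the hibernation season by 0.20 (SE 0.07, q = 0.0346), by 0.14 without K130 (q = 0.0846) and by 0.18 with 31 animals (q = 0.0579).

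Fxyd2, the gamma subunit that tunes the affinity of the pump, differed by 0.05 between the seasons (SE 0.07, 95% interval -0.10 to 0.20, q = 0.648). Its 6 state means lay between 14.85 and 14.99, and no step between neighbours exceeded the spread between animals. The lower bound of its interval lay nearer to 0 than the seasonal value of each of the other 7 genes, the smallest of which was that of Ca4 (-0.12). Those values have errors of their own, and differences between genes were not tested.

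**Figure D2:**
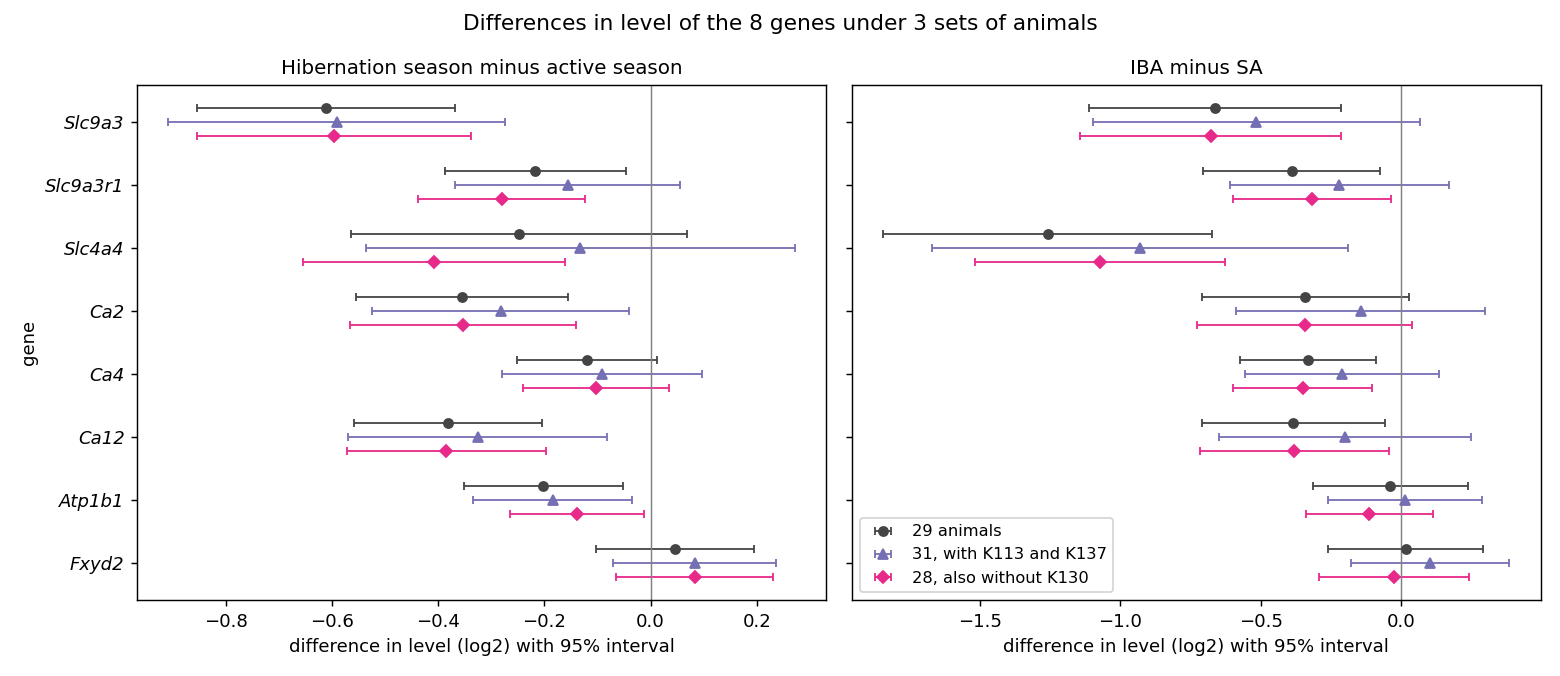
Difference in level (horizontal axes, log2) of each of the 8 genes (vertical axis) between hibernation and active season (left) and between IBA and SA (right). Points are limma estimates and bars their 95% intervals, for 29 animals, for all 31 and for 28. Slc9a3 had the lowest seasonal value (-0.61) and Slc4a4 the lowest value in IBA against SA (-1.26), while Fxyd2 lay near 0 in both panels (0.05 and 0.02).

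Over the 8 genes, 7 had lower values in the hibernation season, and the median difference was -0.23 against a median of 0.00 over all genes. At q under 0.05, 5 were called, all lower (Slc9a3, Ca12, Ca2, Atp1b1 and Slc9a3r1), where 16.8% of all genes were called with a lower level. With 31 animals there were 2 (Slc9a3 and Ca12), against 14.3% of all genes. With 28 there were 5, against 16.9%, with Slc4a4 in and Atp1b1 out.

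Between successive states of hibernation the 8 genes gave few differences, and none passed 0.001 in any of the comparisons that follow. The share of all genes that passed was 0.746% for Ent against IBA, 0.132% for EAr against Ent, 0.295% for LAr against EAr, 1.43% for IBA against LAr and 1.25% for SpD against IBA. Under the looser threshold Ca4 alone was called lower in IBA than in LAr, where 8.03% of all genes were, and with 31 animals none of the 8 was. Slc9a3 and Ca12 were called higher in SpD than in IBA, where 6.48% of all genes were, and with 31 animals neither was. None of the 8 was under 0.05 in Ent against IBA, EAr against Ent or LAr against EAr. At an unadjusted p under 0.05 there were 1, 1 and 0 of the 8 in these 3 (29.4%, 7.16% and 8.33% of all genes), 2 in IBA against LAr (33.4%) and 4 in SpD against IBA (26.6%). Slc4a4 was higher in EAr than in Ent by 0.65 (SE 0.27, q = 0.598).

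Set against IBA, the mean of the 3 cold states (Ent, EAr and LAr) had no member past 0.001, where 3.66% of all genes passed. At 0.05 there were 2, both higher in the cold states, where 12.3% of all genes were called with a higher level. These were Ca4 (by 0.26, SE 0.09, q = 0.0349) and Slc4a4 (by 0.58, SE 0.21, q = 0.0469). In 31 animals they stood at 0.21 and 0.51 with q of 0.276 and 0.214.

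Females and males (16 and 13 animals) did not differ past 0.001 in any of the 8 genes, where 0.0233% of all genes did. Fxyd2 had the smallest p, and was higher in females by 0.17 (SE 0.07, unadjusted p = 0.0177, q = 0.675 in the fit by limma), 14.97 ± 0.17 (SD, n = 16) in females and 14.79 ± 0.16 (SD, n = 13) in males. The seasonal difference depended on sex in 0% of all genes at that threshold, and in none of the 8. At an unadjusted p under 0.05 there were 595 genes and none of the 8.

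Markers of kidney cell types moved with some of these genes. The 10 proximal tubule markers, all in the table and none at 0, had a mean level of 14.84 to 15.17 in SA. In IBA it was 13.65 to 14.52, without overlap. K137 of SA (13.86), left out here, lay within the range of IBA. In SpD it ran from 13.08 (K130) to 15.04. Slc4a4 followed that level over the 29 animals (Pearson r = 0.95, Spearman's rho = 0.91), more closely than Slc9a3r1 (r = 0.75), Ca12 (0.53), Slc9a3 (0.46), Ca4 (0.23) or Ca2 (0.11). Apart from those of Slc4a4, Slc9a3r1 and Fxyd2 these values moved with K130, which had the lowest marker level of its state. In the other 28 animals r was 0.83 for Ca12, 0.82 for Slc9a3, 0.43 for Ca4 and 0.27 for Ca2, and that of Atp1b1 turned to 0.36. For Atp1b1 (r = -0.19) and Fxyd2 (-0.35) r was negative. All points share the libraries, the normalization and the states, and these values describe the animals and were not tested.

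Atp1b1 went instead with the 3 principal cell markers of the collecting duct (r = 0.83, and 0.52 with K113 and K137 included) and with the endothelial markers (0.705, and 0.48 without K130), and Ca2 with the 4 markers of intercalated cells (0.70). The principal cell level was 12.80 to 13.25 in SA, 12.14 to 13.32 in IBA and at least 13.06 in SpD. The highest r of Fxyd2 with any of the 10 marker lists was 0.20. Among the genes themselves r was 0.80 for Slc9a3 and Ca12 and 0.67 for Slc9a3r1 and Ca12. Without K130 these were 0.79 and 0.82, in the reverse order.

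**Figure D3:**
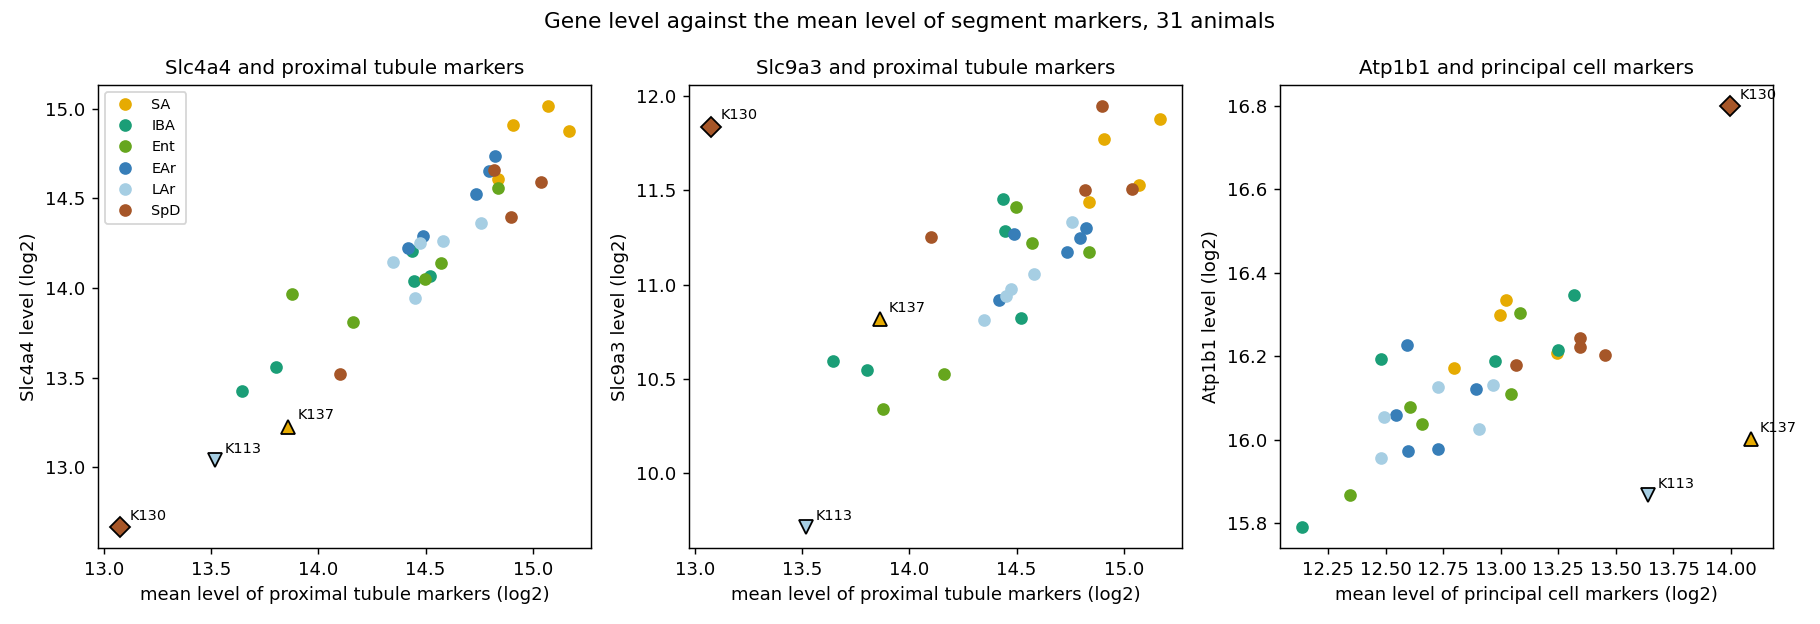
Level of Slc4a4, Slc9a3 and Atp1b1 (vertical axes, log2) in each of 31 animals against the mean level of the proximal tubule or principal cell markers (horizontal axes, log2), coloured by state. K130, K137 and K113 are outlined. Slc4a4 kept to 1 band with the proximal tubule markers, K130 (12.67) included, while K130 lay far off the other animals for Slc9a3, and K113 and K137 lay below the other animals of like marker level for Atp1b1.

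**Figure D4:**
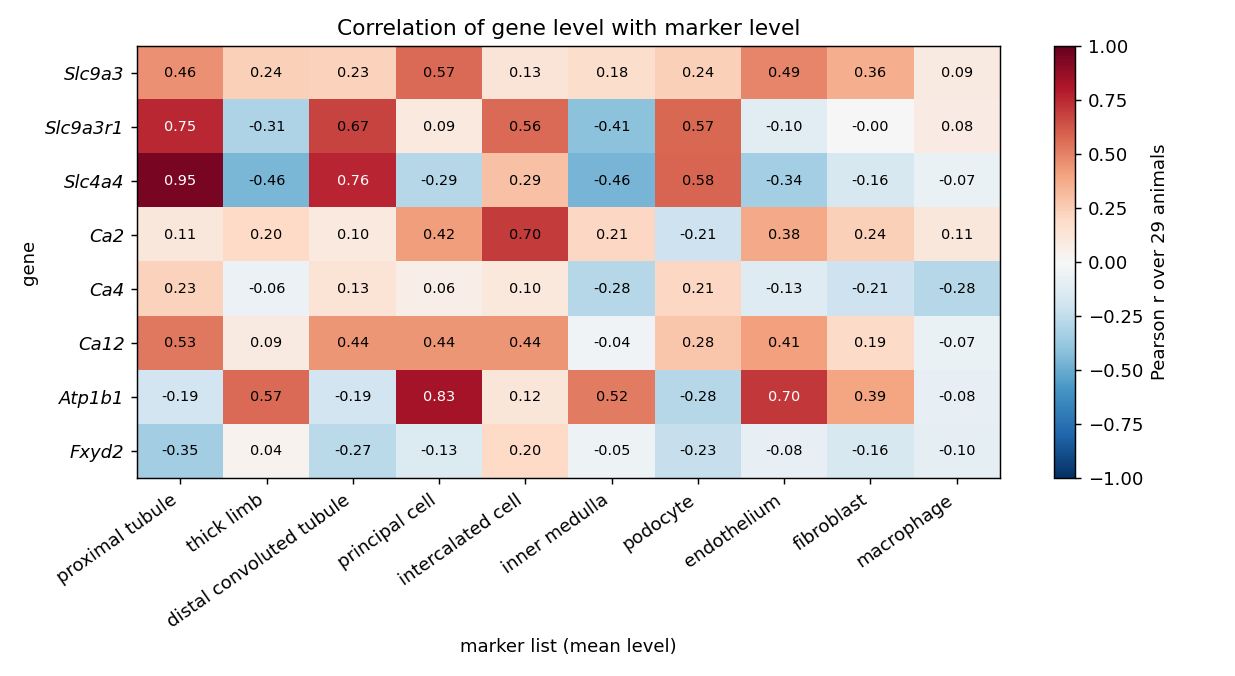
Pearson r over 29 animals between the level of each of the 8 genes (rows) and the mean level of each of 10 marker lists (columns), on a scale from -1 (blue) to 1 (red). Slc4a4 and the proximal tubule markers had the highest value (0.95), followed by Atp1b1 and the principal cell markers (0.83).

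The fit was repeated with a marker level as a further term. With the proximal tubule level in it, Slc4a4 differed between IBA and SA by -0.34 (SE 0.13, q = 0.0619) and between the seasons by -0.02 (q = 0.836). Slc9a3 kept a seasonal difference of -0.52 (SE 0.11, q = 0.000752), Ca12 of -0.30 (q = 0.00194) and Ca2 of -0.35 (q = 0.00908). Without K130 as well, Slc9a3 stood at -0.27 (SE 0.11, q = 0.0641) and Ca12 at -0.11 (q = 0.164). The values of both with that term thus rested on K130. Between IBA and SA, Slc9a3 differed by -0.32 with the proximal tubule level (q = 0.364). With the principal cell level in the fit, the seasonal difference of Atp1b1 was -0.01 (SE 0.07, q = 0.919) and that of Slc9a3 was -0.44 (SE 0.14, q = 0.0294). The 3 principal cell markers themselves had seasonal differences of -0.70, -0.87 and 0.11. The proximal tubule markers themselves differed by -0.35 to -2.25 between IBA and SA, and by -1.08 to 0.12 between the seasons. How far the mean level of either list stands for cell content was not tested. With both levels Slc9a3 was at -0.25 (q = 0.122). Ca4 differed between Ent and IBA by 0.28 (q = 0.0601) with the proximal tubule level, close to its value without.

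IBA, Ent and SpD are the states with animals of both experiments. Within experiment 1 (6 and 3 animals), the mean of IBA and Ent was lower than SpD for 7 of the 8 genes, by 0.76 for Slc9a3 (q = 0.171), 0.60 for Ca12 (q = 0.0897) and 0.59 for Slc4a4 (q = 0.105). Within experiment 2 (4 and 2 animals, with K130) it was lower by 0.54 for Slc9a3 (q = 0.228) and 0.15 for Ca12 (q = 0.766), but higher by 0.93 for Slc4a4 (q = 0.229). Without K130, which leaves 1 SpD animal assumed to vary like the rest, the values were -0.25, 0.01 and 0.50. The difference of Slc9a3 had the same sign in both experiments and that of Slc4a4 did not, and none of these values had q under 0.05.

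Of 51 other genes listed for the same functions 31 were in the table, and few passed the threshold of 0.001. Between the seasons 2 of the 31 were called and both fell, where 9.73% of all genes were called and 5.29% were called lower. Slc26a6, an apical anion exchanger of the proximal tubule, fell by 0.55 on the log2 scale (SE 0.10, q = 0.000127), and Slc26a7, an anion exchanger of intercalated cells, fell by 0.69 (SE 0.13, q = 0.000309). Slc26a7 was also the only gene of the list called across the 6 states (q = 0.000881), where 9.34% of all genes were. Ca5b, a mitochondrial carbonic anhydrase, fell by 0.90 in IBA against SA (SE 0.17, q = 0.000615), the only call of the list in that comparison, where 3.15% of all genes were called. Its row was named by a match to a human sequence, and its mean level was low (7.70, where animal medians were 9.74 to 9.88). Slc26a6 and Ca5b were named after their values were seen. Over the 29 fits that each left out an animal, Slc26a6 kept q under 0.001 (at most 0.000621). The seasonal q of Slc26a7 was above 0.001, and the call lost, without K138 (0.00104) or K139 (0.00147), and its q across the states in 23 of the 29 fits (at most 0.00237). The call of Ca5b was lost in 7, those without any of the 4 SA animals or without K104, K171 or K7 of IBA (at most 0.00347). With experiment 2 alone Slc26a6 differed by -0.41 (q = 0.00791) and Slc26a7 by -0.78 (q = 0.00377) between the seasons. With the proximal tubule level in the fit Slc26a6 stood at -0.43 (q = 2.0e-05) and Slc26a7 at -0.76 (q = 8.1e-05). Ca5b in IBA against SA stood at -0.90 with that term (q = 0.00582). With the principal cell level in the fit Slc26a6 stood at -0.58 (q = 0.0018) and Slc26a7 at -0.33 (q = 0.0549). With all 31 animals Ca5b had q of 0.00274. No listed gene rose past 0.001 in any comparison. The median seasonal difference of the 31 was -0.05.

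Pdzk1, a scaffold that works beside NHERF1, had a difference of -0.13 between the seasons (q = 0.339) and of -0.68 between IBA and SA (SE 0.19, q = 0.0145). The 12 exchangers and scaffolds had a median seasonal difference of 0.02, the 11 bicarbonate and anion exchangers -0.34, the 3 carbonic anhydrases -0.10 and the 5 pump genes -0.08.

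**Figure D5:**
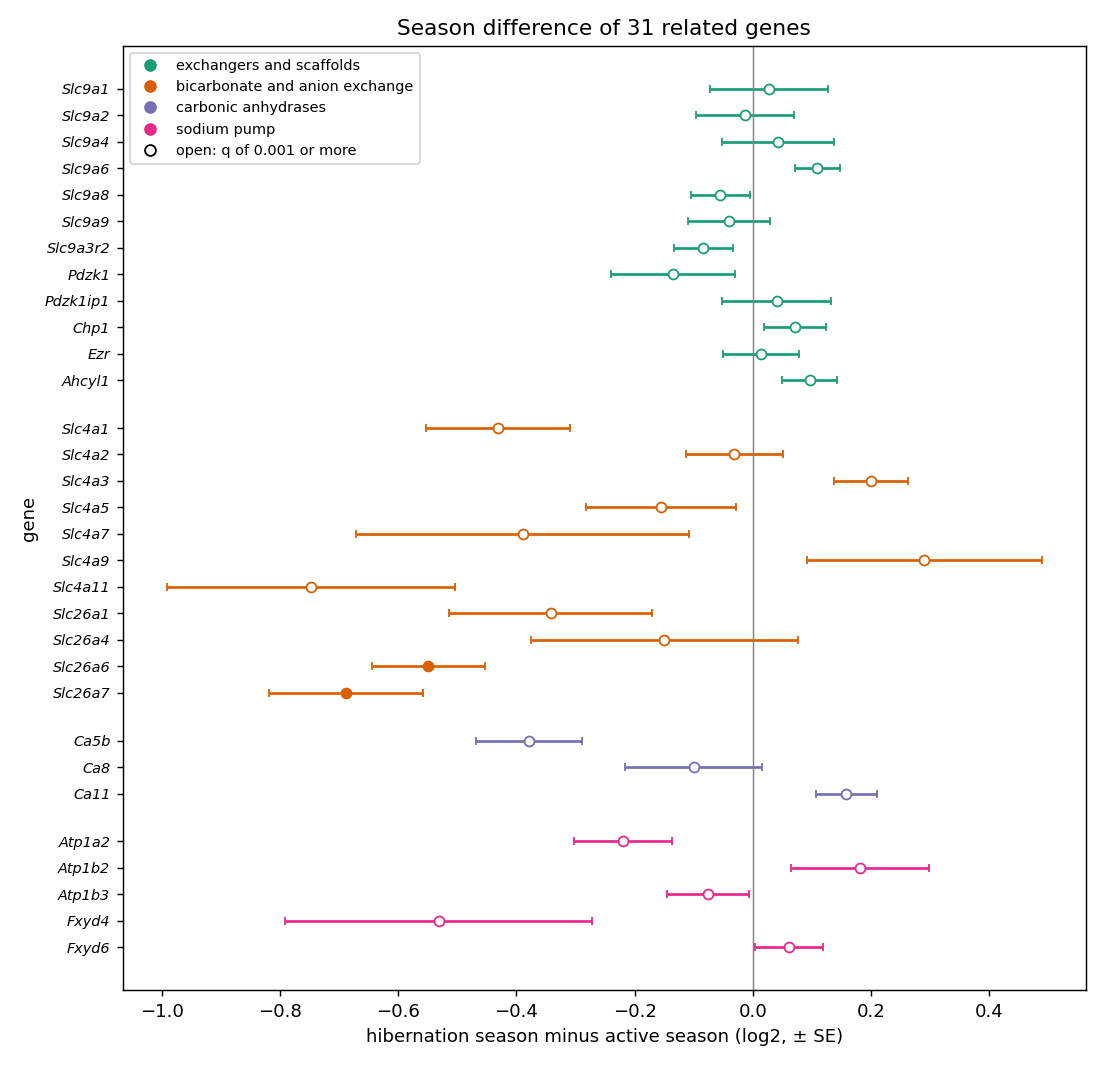
Seasonal difference (horizontal axis, log2, hibernation minus active season, bars ± SE) of 31 genes related to the 8 by function (vertical axis), coloured by group. Filled points have q under 0.001: only Slc26a6 (-0.55) and Slc26a7 (-0.69) are filled.

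The genes whose levels over the 29 animals were most like those of each member differed between members. For Slc4a4 they were Slc5a12 (r = 0.93), a sodium-coupled lactate transporter of the proximal tubule and itself among the 10 markers, and Dnajc13 (0.93). For Slc9a3r1 they were Slc48a1 (0.90) and Crtap (0.89), for Slc9a3 Znf462 (0.84) and Ston1 (0.83), and for Ca12 Bco1 and Tpcn1 (both 0.84). Ca2 was most like Tpi1 (0.83) and Vdac2 (0.81), Atp1b1 like Rtn3 (0.83) and Aldoa (0.81), Fxyd2 like Mrpl23 and Rpl7a (both 0.84), and Ca4 like Cars2 (0.73) and COX8A (0.70). With K113 and K137 included the value for Atp1b1 and Rtn3 was 0.46. No gene was named for more than 1 of the 8.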

How the data were processed

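Per the labels, polyadenylated RNA of frozen kidney was made into libraries with the TruSeq kit (experiment 1) or the Nugen kit (experiment 2). The authors used cutadapt for trimming and hisat2 to discard reads of mitochondrial origin. Salmon then estimated transcript abundance from the HiC_Itri_2 annotation, which was summed to genes and filtered on low values. From these the authors computed regularized log (rlog) values and subtracted the difference between experiments. The table deposited thus holds batch-corrected log2 values, which ran from 4.11 to 19.79 with animal medians of 9.74 to 9.88. Depth is unknown. K136, which the study set aside, was not analysed here.

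Since the authors' test needs counts, limma 3.58.1 (R 4.3.3) was fitted to all 12863 genes with state, sex and experiment as terms and an intensity trend (residual df 21), and q values were adjusted within each comparison. State means are of the values as deposited, and differences come from the fit. The earlier batch correction used up a degree of freedom, which the term for experiment counts in the main fit. A fit of both experiments without that term ignores it. The fit was tested on simulated data. Animals, not replicates of 1 animal, were the unit. The 8 genes and all lists were chosen with earlier results of these data known. Named genes are the 8, those of the function lists with q under 0.001 across the states, Pdzk1, and the 2 genes most correlated with each of the 8. A further listed gene is not reported here. Slc26a6 and Ca5b were added after their values were seen. All 8 genes had an entry in RefSeq (mIctTri1.hap1), Slc9a3r1 as Nherf1. That assembly is not the authors', so no positions are given. Alternatives were other sets of animals, each animal left out, experiment 2 alone, other terms, weights and filters. Marker terms other than that of the proximal tubule, fits within an experiment and fits that drop K130 beside another change were chosen after seeing the data. Figures were drawn with matplotlib 3.10.9.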

Additional observations from a re-analysis of the deposited data

Results flagged for a closer look

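In each state with all its animals (5 or 6), the gap between the highest or lowest animal and the next was set against the range of the state. Of the 48 groups (8 genes in 6 states) 8 had an animal whose gap took up more of the range than Dixon's 95% limit. In a single group chance passes that limit about 1 time in 20. The 48 groups share the same animals, so their count cannot be set against that rate. The share over all genes was not computed. K113 was lowest in LAr for Slc9a3 (gap over range 0.678), Slc4a4 (0.684) and Ca12 (0.660). K137 was lowest in SA for Slc4a4 (0.771) and Ca12 (0.793). K130 was highest in SpD for Atp1b1 (0.897). These 6 of the 8 came from the 3 animals whose marker levels also stood apart, and the part of those levels was not tested. The other 2 were K158, lowest in EAr for Ca2 (0.764), and K7, lowest in IBA for Atp1b1 (0.716). No seasonal difference of the 8 genes differed between the sexes by the test of the interaction at q under 0.05.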

How the results depend on the processing

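The count of the 8 genes past q of 0.001 between the seasons (1) went to 0 with all 31 animals, to 2 with animal weights and to 5 at q under 0.05, and ran from 0 to 2 over the 29 fits that each left out an animal. In IBA against SA it ran from 0 to 1 over those fits. At q under 0.05 the counts of 0 became 4 across the 6 states, 3 in IBA against SA, 2 in SpD against IBA, 2 in the cold states against IBA, 1 in SA against SpD and 1 in IBA against LAr. With experiment 2 only (20 animals) they became 1 across the states and 1 in SA against SpD, where Slc4a4 differed by 1.76 (q = 0.000393) with K130 as 1 of 2 SpD animals. The other counts stayed at 0. Directions turned in 4 cases: the seasonal difference of Slc4a4 was 0.21 with experiment 2 only, and that of Fxyd2 was -0.0698 there, -0.0573 there without K130 and -0.0739 with the 2 marker terms. The other 20 differences followed kept their direction in every fit run. No paired analysis was possible because each animal was sampled once and the states share no replicate numbers. Depth could not be judged, and rlog shrinks differences of low genes. SA, EAr and LAr cannot be told apart from experiment 2 in the batch-corrected levels.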
